A study of Mus musculus with 3 samples.

Results

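Bcl6 is 1 gene, studied here through all reads that lie between positions 23940000 and 24110000 of mouse chromosome 16 on the mm9 build. The stretch of 170 kb was chosen by position, not by any measured value. It holds Bcl6, which lies near 23965000 to 23989000 on the minus strand, and the 121 kb upstream of it, so that upstream means higher coordinates. The position 23989000 is called the 5′ end below and is approximate. The window held 1281 of 12281293 reads on the nuclear chromosomes in the wild-type H3K4me3 library, 1406 of 12075763 in the STAT3-deficient H3K4me3 library and 1474 of 10126263 in the wild-type phospho-STAT3 library.

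These are chromatin immunoprecipitation sequencing (ChIP-seq) libraries of mouse T cells that had been sorted as naive CD4 cells and kept for 72 h under Th17 conditions, with IL-6 at 10 ng/ml, TGF-b at 2.5 ng/ml, antibodies to CD3 and CD28, and antibodies that block IL-2, IL-4 and IFN-g. IL-6 was given again for 1 h before chromatin was prepared. All cells carried the conditional Stat3fl/fl allele and FoxP3-GFP. The group called STAT3-deficient also carried CD4-Cre, which deletes the allele in cells that have expressed Cd4, and the group called wild-type had no Cre, so Cre itself differs between the groups. The phospho-STAT3 antibody was against Ser727. With 1 library in each group, differences between genotypes could not be tested against replicates, and all intervals cover counting error only. Marker genes of Th17 cells were not placed on mm9, so the cell type was not checked in these reads. An input library and phospho-STAT3 in STAT3-deficient cells were not analysed here.

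Bcl6 encodes a transcriptional repressor with a BTB domain and zinc fingers. It is best known as the factor that directs CD4 T cells to the follicular helper fate and B cells to the germinal centre, and it acts against Blimp-1, the product of Prdm1. IL-6 and IL-21 act through STAT3, which binds DNA as a dimer at palindromic motifs, and both cytokines are known to raise Bcl6 in activated CD4 T cells. H3K4me3 is a histone mark of active or poised promoters and usually flanks the transcription start, where nucleosomes are depleted.

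RefSeq gives Bcl6 2 transcription starts, 7569 bp apart on GRCm38.p6. The 250 bases before each start are shown because STAT3 is the factor whose binding and loss were measured, with matches to the general STAT motif TTCNNNGAA in capitals. The motif is its own reverse complement, so 1 search covers both strands. The first stretch is GRCm38.p6 chr16:23988853-23989102 and the second is GRCm38.p6 chr16:23981284-23981533, both on the minus strand and written 5′ to 3′.

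Bcl6 start 1: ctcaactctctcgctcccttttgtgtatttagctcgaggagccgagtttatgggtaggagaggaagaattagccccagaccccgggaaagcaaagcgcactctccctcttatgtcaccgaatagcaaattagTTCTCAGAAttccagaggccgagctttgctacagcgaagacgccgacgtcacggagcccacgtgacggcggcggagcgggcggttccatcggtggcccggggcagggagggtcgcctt
Bcl6 start 2: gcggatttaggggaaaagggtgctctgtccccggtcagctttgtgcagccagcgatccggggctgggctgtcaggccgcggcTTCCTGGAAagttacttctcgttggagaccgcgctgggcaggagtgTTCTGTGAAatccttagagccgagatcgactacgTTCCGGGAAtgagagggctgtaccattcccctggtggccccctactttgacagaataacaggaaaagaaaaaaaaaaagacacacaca

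The first start had 1 match, TTCTCAGAA, which begins 118 bp before it. The second had 3 matches, TTCCTGGAA, TTCTGTGAA and TTCCGGGAA, beginning 168, 122 and 88 bp before the start. Of 32851 RefSeq promoters in the table, 7.02% held at least 1 match in the same 250 bases and 9 promoters, Bcl6 start 2 among them, held 3 or more. A match is a run of letters and not a measured site. These sequences belong to another build than the reads and neither was placed on mm9, so no read is assigned to a motif.

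Phospho-STAT3 reads in wild-type cells were densest at the 5′ end of Bcl6. A site had to hold 10 reads or more in 200 bp, with both strands represented, and to pass a Poisson p of 1e-08 against whichever density was higher, that of the genome or that of the surrounding 10 kb. The strongest of them, chr16:23988500-23988899, held 75 reads in its highest 200 bp (95% interval 59 to 94). From the surrounding 10 kb, the site's own reads included, 6.68 were expected, an 11.2-fold enrichment. The middle of those 200 bp lies 300 bp inside the 5′ end. Its excess over the local expectation, 68.3 reads, ranked it 538 of 27061 sites in the genome, so 1.99% of all sites were at least as strong. In the same 200 bp both H3K4me3 libraries held 0 reads, which allows up to 3 in each. The pile of reads was thus not shared with the other libraries.

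The strands of this site formed separate peaks. Within 250 bp, 37 plus-strand reads had their 5′ ends at a median of 23988678 and 48 minus-strand reads at a median of 23988768. The strands were thus 90 bp apart, with the midpoint 277 bp inside the 5′ end of the gene. A smaller site, chr16:23988950-23989149, adjoined it and held 29 reads against 6.8 expected. There the medians of the strands were 10 bp apart, with 20 plus and 33 minus ends, some of which are shared with the larger neighbour. With a looser threshold, a wider local background or unshifted reads, both were joined into 1 site.

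**Figure D1:**
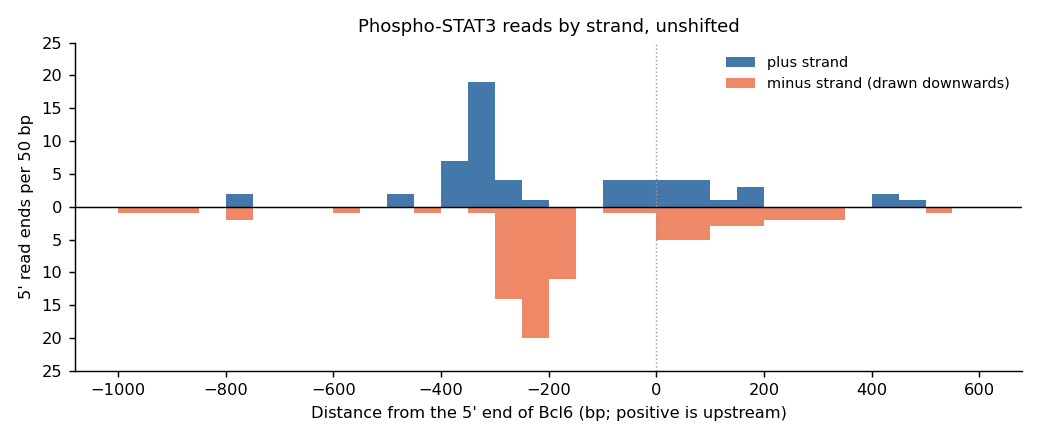
Phospho-STAT3 reads around the 5′ end of Bcl6 by strand, as numbers of 5′ read ends per 50 bp with reads not shifted. The x axis is the distance from the 5′ end in bp and the y axis counts reads, with the minus strand drawn downwards. The 37 plus-strand ends and 48 minus-strand ends of the strongest site form adjacent peaks 90 bp apart, while reads near 0 bp are spread over both strands.

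The other sites of the window were weaker. Of 7 sites in all, 1 was strong, meaning an excess of 26.1 reads or more, against 25% of all sites by construction. A site inside the gene, chr16:23984350-23984599, held 29 reads against 7 expected and its middle lay 4500 bp from the 5′ end. Past the 3′ end of the gene, a site of 14 reads lay 26.3 kb from the 5′ end at chr16:23962600-23962799. Both are well below the promoter site, whose count exceeded theirs beyond the counting intervals (19.4 to 41.6 and 7.65 to 23.5 reads).

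Upstream of the gene 3 sites passed the rule. Nearer to the gene, chr16:23991350-23991549, 2.45 kb upstream, held 22 reads against 5.3 expected, too few for the rule. It was called at a Poisson p of 1e-05 and, with wider ends, with a local background over 50 kb. The nearest of the 3, chr16:24023650-24023949, was 34.8 kb from the 5′ end and held 22 reads against 1.62 expected. Its 13.6-fold enrichment was the highest of the window under the main rule, above the 11.2-fold of the promoter site, since only 1.62 reads were expected there. With a local background over 50 kb the order turned, with 17.9-fold here and 28.3-fold at the promoter site. Its excess under the main rule was 20.4 reads against 68.3 at the promoter. The next, chr16:24037650-24037849, held 12 reads 48.75 kb upstream. The farthest, chr16:24093450-24093649, held 19 reads 104.55 kb upstream, and its counting interval (11.4 to 29.7) overlapped that of the other 2.

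The farthest site belonged to a wider stretch of raised phospho-STAT3 reads. From 103 to 109 kb upstream, 130 phospho-STAT3 reads lay within 6 kb, 4.52 times the library's mean density, while the H3K4me3 libraries stood at 1.09 and 1.23 times theirs. Between 77 and 79 kb upstream, 48 phospho-STAT3 reads were 5.01 times the mean density, against 1.81 and 1.84 times in the H3K4me3 libraries. No site passed the rule in the second stretch. Both stretches were picked after the reads were seen, and in the gene table the neighbours on the upstream side of Bcl6 are the long noncoding RNA genes Gm31527, Gm46545 and Gm31583, which were not placed on mm9.

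**Figure D2:**
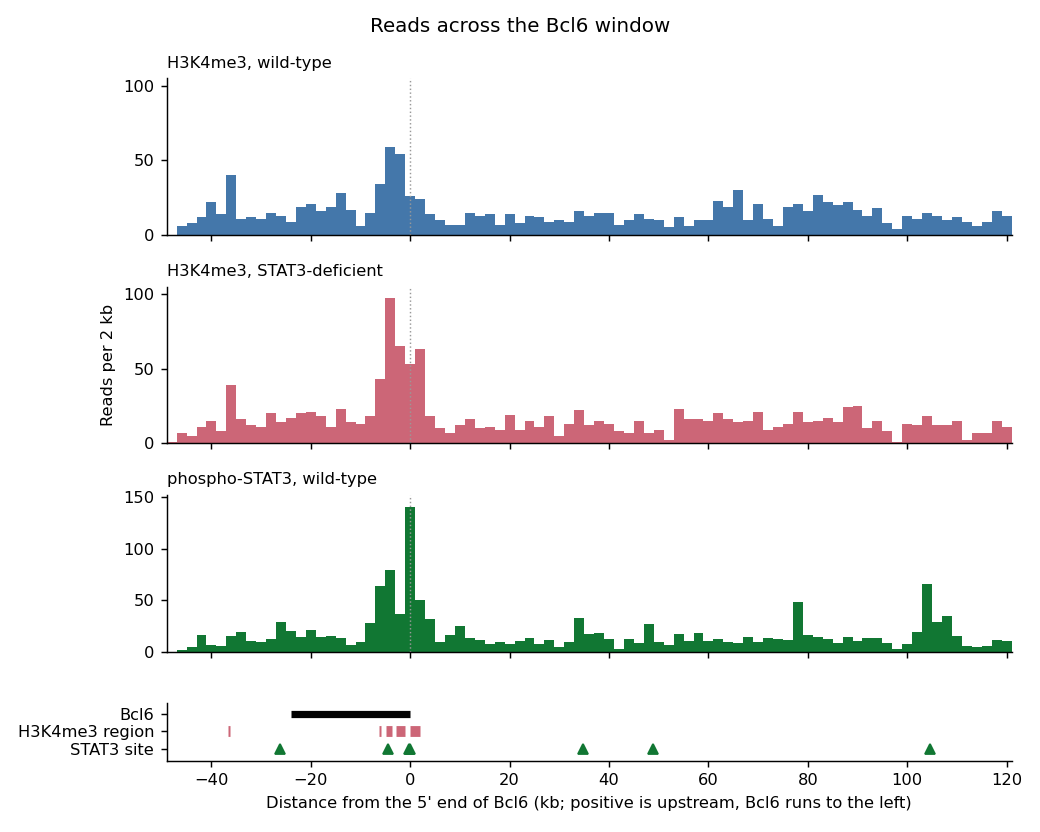
Reads per 2 kb across the Bcl6 window in the 3 libraries, against the distance from the 5′ end in kb (positive is upstream), with the gene, the 5 H3K4me3 regions and the 7 phospho-STAT3 sites below. Both H3K4me3 panels share 1 scale. Phospho-STAT3 reads peak at the 5′ end and form lower mounds between 77 and 79 kb and between 103 and 109 kb upstream, where the H3K4me3 panels have no region.

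The number of sites can be set against stretches of the same length. The genome was cut into 15529 stretches of 170000 bp, with a median of 0 and a mean of 1.74 sites. At least 7 sites were found in 7.30% of them, and a site at least as strong as that of Bcl6 in 2.98%. The stretches were not matched to the window for genes or mappability, and 54.7% held no site. The 7 sites of the window include the adjoining pair at the 5′ end, and their number varied with the calling rule. Phospho-STAT3 density was 45.2 reads per kb within 2 kb of the 5′ end, 9.44 times the library's mean, against 12.9 per kb in the rest of the gene, 7.29 upstream and 5.64 past the 3′ end.

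H3K4me3 around the 5′ end of Bcl6 was split into several regions, and the one at the 5′ end had a low wild-type density. To find regions, the reads of both H3K4me3 libraries were pooled, and a region with at least 50 reads in total is called marked. Within 10 kb of the 5′ end there were 4 regions, of which 3 were marked, between 23982800 and 23990999. The region that holds the 5′ end, chr16:23989000-23990999, had 42 wild-type and 95 STAT3-deficient reads, which is 21.0 and 47.5 per kb. It begins exactly at the approximate 5′ end and lies on the upstream side, so whether it holds the true start was not determined. Marked regions had a median of 49.2 per kb in the wild-type and 60.7 per kb in the STAT3-deficient library. Only 1.42% of 10971 marked regions had a lower wild-type density than this one, but 25.9% had a lower STAT3-deficient density. By number of reads, 29.1% had fewer in the wild-type library. The region and its ends were not found with wild-type reads alone, so the 1.42% may overstate how low the wild-type density is.

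Regions inside the gene had more wild-type reads per kb than the one at the 5′ end. The region chr16:23984200-23985399 begins 3601 bp from the 5′ end and overlaps the site 4500 bp inside the gene. It had 45.8 reads per kb in wild-type (55 reads) and 72.5 in STAT3-deficient cells (87 reads). Of all marked regions, 41.6% had a lower wild-type and 68.6% a lower STAT3-deficient density than this region. Between it and the 5′ end lay chr16:23986200-23987999, with 54 and 65 reads, or 30.0 and 36.1 per kb, the latter below the 47.5 of the region at the 5′ end. A short region of 400 bp, chr16:23982800-23983199, held 18 and 21 reads, too few to be marked. Of the 4 marked regions of the window, 2 overlapped a phospho-STAT3 site, against 52.5% of all marked regions.

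The strongest phospho-STAT3 site fell into a gap in H3K4me3. Between the region at the 5′ end and the next region inside the gene, 1000 bp held 5 wild-type and 7 STAT3-deficient H3K4me3 reads, close to the mean densities of those libraries (5.81 and 5.71 per kb). The same 1000 bp held 99 phospho-STAT3 reads. The regions on either side had 21.0 and 30.0 wild-type reads per kb, and 47.5 and 36.1 in the STAT3-deficient library. The gap was thus present in both genotypes.

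**Figure D3:**
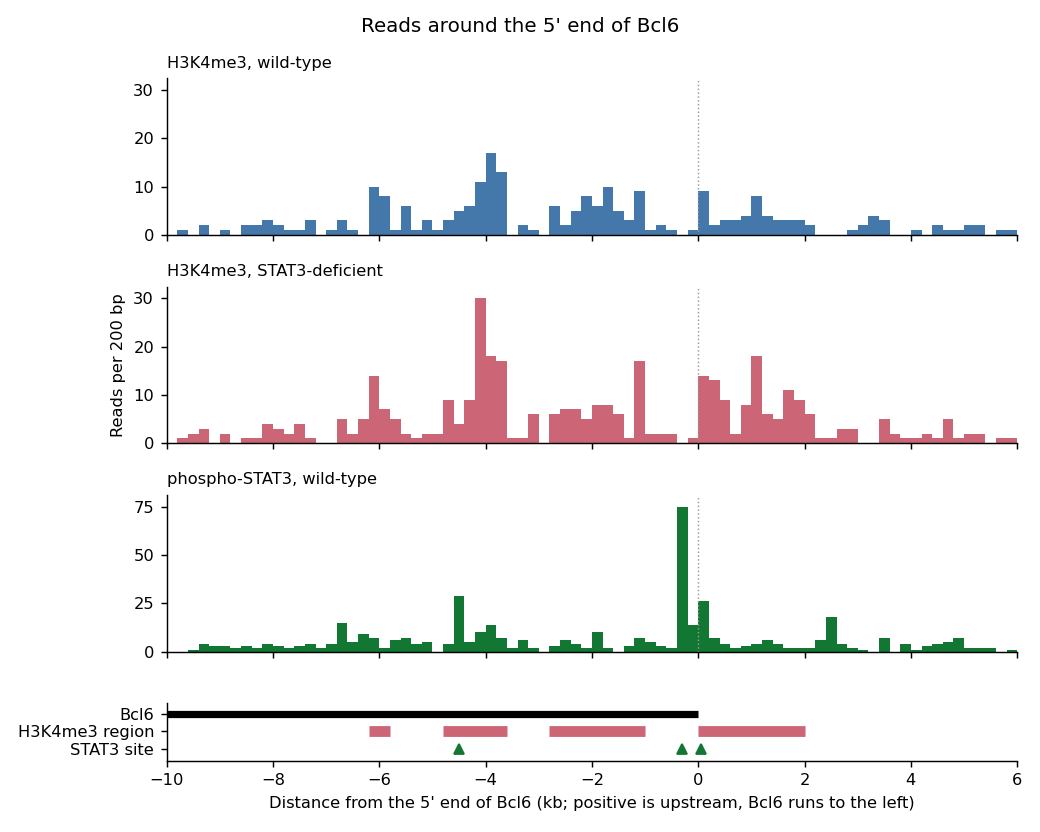
Reads per 200 bp from 10 kb inside to 6 kb upstream of the 5′ end of Bcl6, with both H3K4me3 panels on 1 scale, and the gene, H3K4me3 regions and phospho-STAT3 sites below. The tallest phospho-STAT3 bar, 75 reads, stands in the gap where H3K4me3 is at 0 reads in both libraries. To the right of the 5′ end the STAT3-deficient bars are taller, 95 reads in all against 42.

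By genotype, H3K4me3 in the region at the 5′ end of Bcl6 was higher in the STAT3-deficient library. Ratios are STAT3-deficient over wild-type, scaled so that the median log2 ratio of all marked regions is 0, which removes any change common to them. The 42 wild-type and 95 STAT3-deficient reads gave a log2 ratio of 0.88 (95% interval 0.34 to 1.44), a 1.84-fold difference (1.27 to 2.72). The interval lies above 0, as it does for 5.83% of all marked regions, and 1.45% of marked regions had a ratio at least as high. Both values rest on the same reads that set the ends of the region. The difference did not reach the size rule of at least 2-fold with an interval that excludes no change, which was passed by 1.01% of marked regions as higher and 1.16% as lower in the STAT3-deficient library.

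The call turned with the scaling. By library totals the difference was 2.30-fold, which passes the size rule, but so do 2.91% of marked regions as higher and 0.492% as lower under that scaling, and 29.3% have an interval above 0. The size of the difference also depended on where the region begins and ends. With all reads within 2 kb of the 5′ end, 80 wild-type and 142 STAT3-deficient, the log2 ratio was 0.53 (0.13 to 0.95). When only wild-type reads were used to call regions, this one was not found. The nearest one called there, chr16:23987200-23987999, had 27 and 32 reads and a log2 ratio of 0.015. Called on the STAT3-deficient library alone, the region at the 5′ end was found with the same ends and a ratio of 0.81. Its call thus depended on the library in which it was higher. Neither the interval of its ratio nor its rank among marked regions allows for this, and both may overstate the difference.

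No difference between genotypes was detectable at this depth in the other regions under the main scaling. The log2 ratio was 0.37 (-0.14 to 0.88) in the region 3601 bp inside the gene, which by library totals reached 0.69 with an interval above 0. It was -0.03 (-0.57 to 0.52) in the region 1001 bp inside and -0.07 (-1.05 to 0.92) in the short one 5801 bp inside. Over the whole stretch from the first to the last of these regions, a span chosen after the reads were seen, 189 wild-type and 295 STAT3-deficient reads gave 0.35 (0.08 to 0.62), and 0.67 (0.40 to 0.94) by library totals. A narrow region past the 3′ end, chr16:23952400-23952799, 36201 bp from the 5′ end, held 26 and 27 reads, a ratio of -0.24 (-1.07 to 0.59), and 3 phospho-STAT3 reads.

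**Figure D4:**
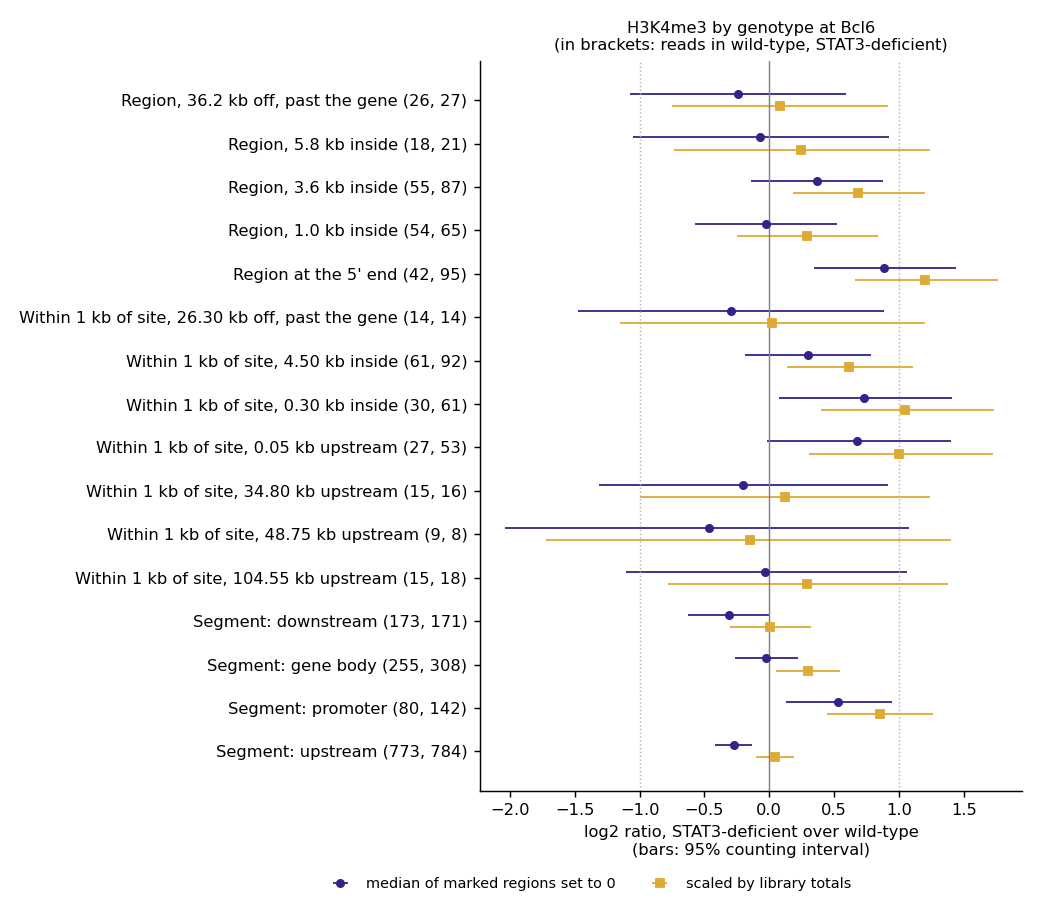
H3K4me3 by genotype at Bcl6, as log2 ratios of STAT3-deficient over wild-type reads with 95% counting intervals under both scalings, for the 5 regions, the stretch within 1 kb of each of the 7 phospho-STAT3 sites, and the segments of the window. Read numbers stand in brackets, wild-type first, distances are from the 5′ end of the gene, and dotted lines mark 2-fold. The region at the 5′ end is the only region whose interval lies above 0 under both scalings.

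Upstream of the gene, H3K4me3 reads were near the mean and alike in number by library totals. Upstream beyond 2 kb, 773 wild-type and 784 STAT3-deficient reads gave 6.50 and 6.59 per kb, near the mean densities of the libraries. By library totals the log2 ratio there was 0.045 (-0.10 to 0.19), and by marked regions it was -0.28 (-0.42 to -0.13). The 0.32 between both scalings is the amount by which marked regions as a whole stood higher in the STAT3-deficient library. All reads of the window outside called regions, 1086 and 1110, gave 0.06 (-0.07 to 0.18) by library totals. The rest of the gene, with its called regions, held 255 and 308 reads, 1.99 and 2.45 times the mean densities, and by marked regions its ratio was -0.02 (-0.27 to 0.22), whereas library totals gave 0.30 (0.05 to 0.54).

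H3K4me3 ratios beside the phospho-STAT3 sites near the 5′ end and inside the gene varied with the distance taken. Within 1 kb of the strongest site, 30 wild-type and 61 STAT3-deficient reads gave a log2 ratio of 0.73 (0.07 to 1.41). The ratio was 0.14 (-0.93 to 1.25) within 500 bp and 0.36 (-0.04 to 0.76) within 2000 bp, and both of these intervals include 0. For the neighbour of the strongest site, which shares most of its reads within 1 kb, the ratio was 0.68 (-0.02 to 1.40) from 27 and 53 reads. The neighbour had 0.93 (0.02 to 1.91) within 500 bp and 0.61 (0.20 to 1.03) within 2000 bp. Beside the site 4500 bp inside the gene the ratio was 0.30 (-0.19 to 0.79) from 61 and 92 reads. It was 0.76 (0.06 to 1.49) within 500 bp and 0.25 (-0.14 to 0.64) within 2000 bp. By library totals the ratios within 1 kb were 1.05 at the strongest site, 1.00 at its neighbour and 0.62 here, each with an interval above 0. At each of the 3 upstream sites and the site past the 3′ end, H3K4me3 numbered between 8 and 18 reads per library within 1 kb, and every interval under the main scaling included 0. The widest of these intervals reached down to -2.04 at the site 48.75 kb upstream, so differences well beyond 2-fold were not detectable there.

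In the genome, few H3K4me3 regions had phospho-STAT3 as strong as that of Bcl6. A site with at least its excess lay within 1 kb of 104 marked regions, 0.948% of all. The median log2 ratio of these 104 regions was -0.12 (quartiles -0.38 and 0.09), against 0 for all marked regions (-0.21 and 0.20). Among the 104, 5 (4.81%) had a ratio at least as high as the 0.88 of the Bcl6 region, against 1.45% of all marked regions. The Bcl6 region is itself counted among the 104 and the 5. Of the 104, 11 passed the size rule as lower and 3 as higher in the STAT3-deficient library. Of all 10971 marked regions, 127 passed it as lower and 111 as higher. The region at the 5′ end of Bcl6 was thus in the upper part of that group. This is a description of its rank, and a difference between Bcl6 and the group was not tested.

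**Figure D5:**
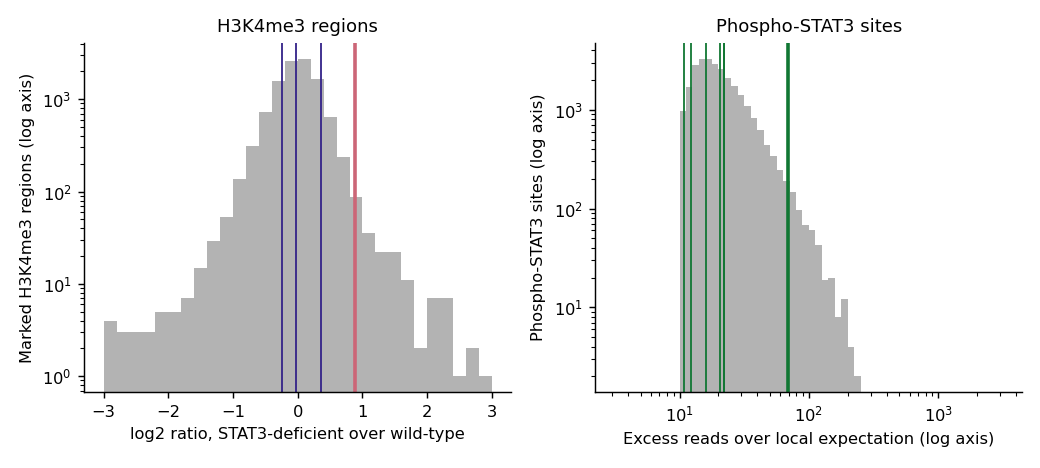
Left, log2 ratios of STAT3-deficient over wild-type reads for all 10971 marked H3K4me3 regions (values beyond 3 are drawn at the edge), with the 4 marked regions of the Bcl6 window as lines and the one at the 5′ end thicker. Right, excess reads of all 27061 phospho-STAT3 sites, with the 7 of the window as lines and the promoter site thicker. The thick lines stand at 0.88 and at 68.3 reads, while the other 3 region lines stand between -0.24 and 0.37 and the site lines at 10.8 and 12.3 reads at the low end of the sites.

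Farther into the gene H3K4me3 returned to near the mean. From 6.8 to 10 kb inside the 5′ end, 3.2 kb held 19 wild-type and 24 STAT3-deficient H3K4me3 reads, 1.02 and 1.31 times the mean densities. The borders of this stretch were picked after the reads were seen. Phospho-STAT3 numbered 40 reads there, 2.61 times its mean, and no site was found. The adjoining 200 bp nearer the 5′ end held 15 phospho-STAT3 reads, and no site was called there either. RefSeq start 2, with its 3 motif matches, lies 7569 bp into the gene from start 1 on GRCm38.p6, but where this falls on mm9 was not determined.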

How the data were processed

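The authors deposited aligned reads, 1 line each, without a count or signal. The build was mm9 and SICER was used, per the submitters' processing notes; the aligner is not given in the sources used here. Each read spans 25 bp, and no position and strand carried over 1 read. Libraries had 18 PCR cycles and no molecular identifiers, so reads may not be independent.

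Reads were moved 75 bp towards the fragment centre. H3K4me3 regions were 200 bp windows with at least 12 pooled reads (Poisson p of 1e-05, mappable share 0.8), joined within 600 bp, at least 2 windows each. Ratios carry exact Clopper-Pearson 95% intervals, and read numbers exact Poisson intervals. No test between genotypes was possible. All regions and sites of the window were to be named if there were no more than 15 sites. The gene, rules and lists were chosen with earlier results of these data known.

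No gene positions on mm9 were at hand, so other genes and marker genes were not run, and the gene's ends are those of the selection rule. RefSeq promoters (GRCm38.p6) were to be placed by the reference bases in the read codes. They matched fully at 14 and 19 places of the window, so neither was placed. The size rule and site caller were tested on simulated data. Alternatives covered scaling, shift, calling library, thresholds, local background and reach. Python 3.11.15, numpy 2.4.6, scipy 1.17.1, pandas 2.3.3 and matplotlib 3.10.9 were used.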

Additional observations from a re-analysis of the deposited data

How the results depend on the processing

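The H3K4me3 ratio at the 5′ end of Bcl6 stayed inside its counting interval under every alternative run except calling regions on wild-type reads alone, where it was 0.015 for another region. Background subtraction gave 1.21. The count of regions past the size rule, 111 higher and 127 lower, became 319 and 54 by library totals, 202 and 369 with marked regions of at least 20 reads, and 52 and 42 with at least 100. With regions taken from wild-type reads alone 12 were higher, and with regions taken from STAT3-deficient reads alone 22 were lower; the cause was not tested. The 7 phospho-STAT3 sites became 2 at a Poisson p of 1e-12, 11 at 1e-05, 4 without the read shift and 10 with a local background over 50 kb. The strongest site was found in each, with 70 to 75 reads. For the site 34.8 kb upstream, H3K4me3 within 500 bp gave 1.44 (-0.52 to 3.94) against -0.20 within 1 kb, and both intervals include 0. By library totals the segment ratios were 0.0076 past the 3′ end, 0.30 in the gene body, 0.045 upstream and 0.16 over the whole window, each 0.32 above the value by marked regions, which was below 0 in all 4 (-0.31, -0.02, -0.28 and -0.16). With 1 library per group, neither a paired analysis nor leaving out a replicate could be run. Depth limits the 3 upstream sites and the site past the 3′ end, which rest on 12 to 22 reads.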
